A study of Mus musculus with 17 samples.

Results

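The 3 chains of the IL-2 receptor (Il2ra, Il2rb and Il2rg) and the semaphorin Sema7a were followed across 17 exon arrays of 32D cells, an immortalized mouse myeloblast-like line that depends on the cytokine IL-3. They make 4 of the 20227 genes measured. Il2ra and Sema7a were chosen by their spread among lines carrying mutant FLT3, so that spread is described here without a test, and Il2rb and Il2rg were taken because they complete the receptor. The 4 genes had 69 probe sets that map to their symbol alone. Of these, 64 passed a filter on dim probe sets (mean over the 17 arrays above 4.599 on the log2 scale), and all 4 genes passed. A gene value is the mean log2 signal of its used probe sets, and a probe set covers part of an exon. Levels of different genes rest on different probes and are not compared.

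The 9 ITD arrays each held RNA of a different 32D line with a human FLT3 mutant. FLT3 is a growth factor receptor with tyrosine kinase activity, made by early blood cells, and ITD stands for an internal tandem duplication that activates it in leukaemia. These lines, numbered here 1 to 9, grew without mouse IL-3. Against them stood cells with human wild-type FLT3 given FLT3 ligand at 20 ng/mL (2 arrays), the same cells without ligand (2), cells with the empty pLXRN retroviral vector (2) and parental cells (2). The medium of the last 3 groups held 1 ng/mL of the mouse cytokine. The protocol does not say whether IL-3 was kept in the cultures with ligand. The transduced lines were polyclonal populations. Because the ITD lines alone are stated to have grown without IL-3, the mutation and the absence of IL-3 cannot be told apart. As labelled, the ligand group could name the ligand as the introduced gene; it was read here through the growth protocol, in which wild-type FLT3 cells were divided between cultures with and without ligand. The labels call the paired control arrays biological replicates but do not say whether separate lines were made. The spread within these pairs may therefore be technical. In the fit of all arrays, p-values rest on the spread among the ITD lines pooled with the spread within the pairs. In fits of control arrays alone, they rest on the spread within the pairs. Each mutant had 1 array, so no single line was tested. In bulk RNA, fewer cells carrying a transcript and less of it per cell cannot be told apart.

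The IL-2 receptor binds IL-2 with high affinity when its alpha chain (Il2ra, also called CD25) joins the signalling beta (Il2rb) and gamma (Il2rg) chains. The beta chain also serves the IL-15 receptor and carries the kinase Jak1, and the gamma chain is shared by a family of cytokine receptors and carries Jak3; both lead to STAT5. In lymphocytes Il2ra is the inducible chain, with STAT5 and NF-kB among its regulators. Sema7a (CD108) is a semaphorin held in the membrane by a lipid anchor, and its receptors are plexin C1 and integrins that contain the beta-1 chain.

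In RefSeq's annotation of the mouse genome (GRCm38.p6), Il2ra lies on chr2:11642792-11693194, Il2rb on chr15:78479256-78511621, Il2rg on chrX:101264385-101268255 and Sema7a on chr9:57939596-57962865. The promoters of Il2ra and Sema7a are shown because lines 1 and 6 of the mutant lines were highest for both transcripts. Each is 300 bases from RefSeq, printed 5′ to 3′ on the plus strand of GRCm38.p6: chr2:11642542-11642841 for Il2ra and chr9:57939862-57940161 for Sema7a. The Sema7a window lies wholly inside the gene's annotated span, so the start site it is set on is not the first base of that span, as it is for Il2ra. Capitals mark letters that match the NF-kB consensus.
Il2ra: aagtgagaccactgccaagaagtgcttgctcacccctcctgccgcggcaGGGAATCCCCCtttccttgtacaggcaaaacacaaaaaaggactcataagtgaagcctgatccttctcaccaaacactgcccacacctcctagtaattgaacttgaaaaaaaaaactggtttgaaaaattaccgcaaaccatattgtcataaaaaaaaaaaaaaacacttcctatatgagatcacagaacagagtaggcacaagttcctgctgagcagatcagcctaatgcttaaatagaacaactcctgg
Sema7a: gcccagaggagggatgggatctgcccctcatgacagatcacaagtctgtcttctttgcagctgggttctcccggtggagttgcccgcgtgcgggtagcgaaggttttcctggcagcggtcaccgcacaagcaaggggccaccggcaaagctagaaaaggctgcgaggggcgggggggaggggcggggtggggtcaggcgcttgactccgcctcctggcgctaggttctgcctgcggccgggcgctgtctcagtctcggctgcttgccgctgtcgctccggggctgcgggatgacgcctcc
Searched on both strands, the NF-kB consensus matched the Il2ra window at 2 overlapping positions, which begin -201 and -200 bases from the start site. It did not match the windows of Sema7a or Il2rg, and 8.46% of 32851 mouse promoter windows of this length held it. The STAT motif TTCNNNGAA was in none of the 3 windows and in 8.30% of all windows. The bases G and C made up 42.7% of the Il2ra window, 67.3% of the Sema7a window and 50.3% of the Il2rg window. These matches describe letters in the sequence and not bound sites.

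Il2ra, the chain that raises affinity for IL-2, was the most variable of the 4 genes among the ITD lines and was lowest in parental cells. Its gene value (log2) was 10.76 in ITD line 1, 6.53 in line 2, 7.08 in line 3, 6.72 in line 4, 7.88 in line 5, 9.53 in line 6, 7.30 in line 7, 7.77 in line 8 and 5.32 in line 9. It was 9.22 and 9.46 in the cultures with ligand, 8.89 and 8.71 with wild-type FLT3, 8.94 and 8.92 with the vector, and 4.53 and 5.06 in parental cells. Lines 1 and 6 lay above every control array, the other 7 lines lay below every vector, wild-type and ligand array, and all 9 lay above both parental arrays. From the lowest line to the highest the signal differed 43.4-fold. The SD over the 9 lines was 1.63, which ranked 4 among 20227 genes, whereas the pooled SD within control pairs was 0.217. Over all genes the median SD was 0.199 for the ITD lines and 0.124 for the pairs, and only 48 genes had an SD over 1 among the ITD lines.

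Sema7a, the membrane-anchored semaphorin, had the same lines at its top. Its gene value (log2) was 9.73 in ITD line 1, 6.69 in line 2, 6.72 in line 3, 5.39 in line 4, 6.19 in line 5, 8.43 in line 6, 6.40 in line 7, 6.56 in line 8 and 5.73 in line 9. It was 7.44 and 7.54 with ligand, 6.97 and 6.76 with wild-type FLT3, 7.17 and 7.05 with the vector, and 6.28 and 6.16 in parental cells. Both line 1 and line 6 were above all control arrays, the other 7 lines were below every vector, wild-type and ligand array, and lines 4, 5 and 9 did not lie above the parental pair. The lines spanned 20.3-fold and their SD was 1.37, rank 13 among 20227 genes, with 0.104 within control pairs. Lines 1 and 6 were the 2 highest lines in 485 genes, or 2.40% of all genes, a description of an order noticed in these data.

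**Figure D1:**
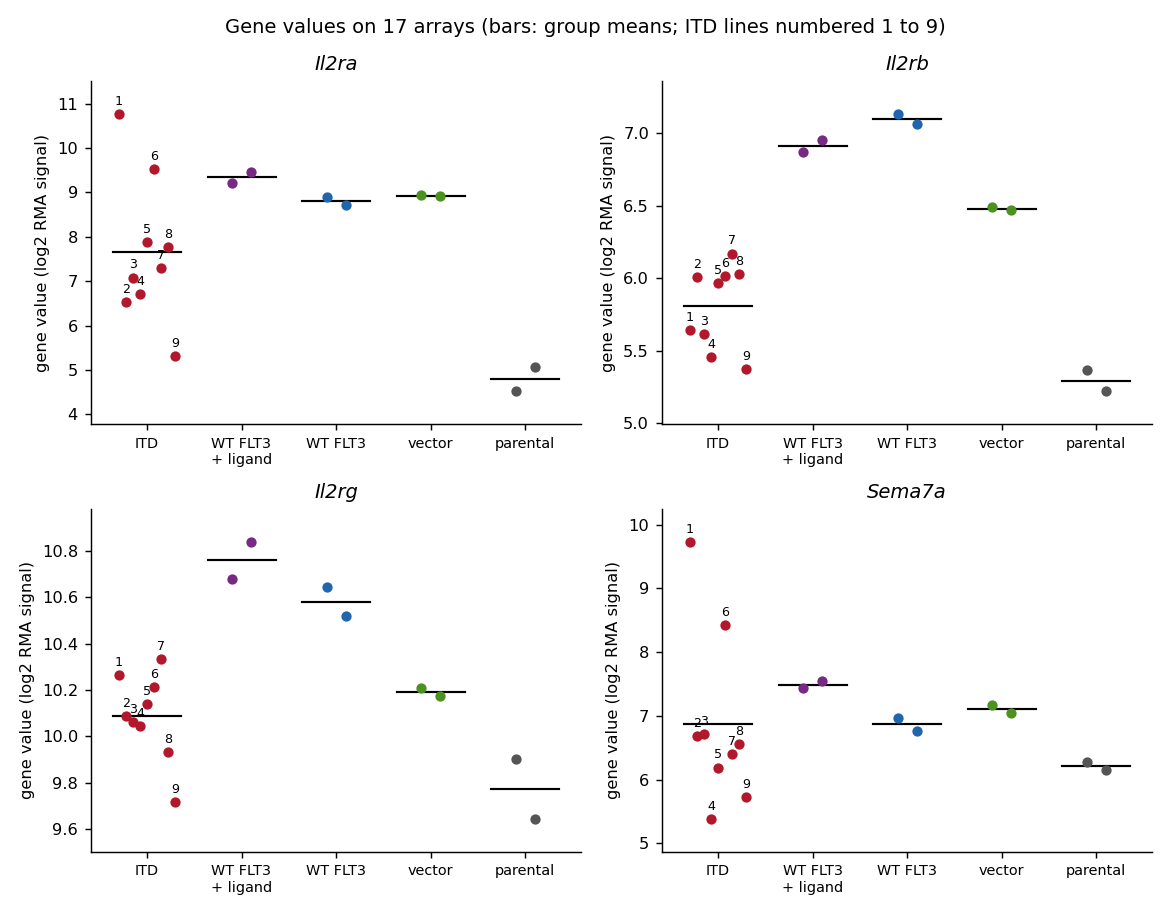
Gene values (log2 RMA signal, vertical axis, scaled separately for each gene) of Il2ra, Il2rb, Il2rg and Sema7a by group; each point is 1 array, numbers name the ITD lines and bars are group means. Lines 1 and 6 stand above the controls for Il2ra (10.76 and 9.53) and Sema7a (9.73 and 8.43), but the 9 lines lie together for Il2rb (5.37 to 6.17) and Il2rg (9.72 to 10.33).

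Il2rb, the beta chain that carries Jak1, was low in every ITD line. Its gene value (log2) was 5.64 in line 1, 6.01 in line 2, 5.61 in line 3, 5.45 in line 4, 5.97 in line 5, 6.02 in line 6, 6.17 in line 7, 6.03 in line 8 and 5.37 in line 9. It was 6.87 and 6.95 with ligand, 7.13 and 7.06 with wild-type FLT3, 6.49 and 6.47 with the vector, and 5.36 and 5.22 in parental cells. By gene value, all 9 ITD lines lay below every ligand, wild-type and vector array and above both parental arrays, the nearest being line 9 at 5.37. The direction against parental cells differed between probe sets, as given below. The SD over the lines was 0.289, against 0.063 within control pairs. The variance of the lines exceeded that of the pairs by an F ratio of 21.1, which did not pass adjustment over all genes (one-sided F test, adjusted p = 0.0800); 516 genes, 2.55%, passed.

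Il2rg, the gamma chain shared by the receptor family, varied least. Its gene value (log2) was 10.27 in ITD line 1, 10.09 in line 2, 10.06 in line 3, 10.04 in line 4, 10.14 in line 5, 10.21 in line 6, 10.33 in line 7, 9.93 in line 8 and 9.72 in line 9. It was 10.68 and 10.84 with ligand, 10.64 and 10.52 with wild-type FLT3, 10.21 and 10.17 with the vector, and 9.90 and 9.64 in parental cells. All 9 ITD lines were below the ligand and wild-type arrays, they overlapped the vector arrays, and line 9 fell between the parental arrays. Their SD of 0.185 stood against 0.116 within control pairs (F ratio 2.55, adjusted p = 0.405).

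Line 9 was lowest of the 9 lines for Il2ra, Il2rb and Il2rg and second lowest for Sema7a. Parental cells had the lowest group mean of the 5 groups for all 4 genes, a position that 27.0% of all genes shared.

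Most single probe sets of Il2ra and Sema7a had the top lines of the gene value, whereas in Il2rb no line was lowest on most of them. In Il2ra, line 1 was highest, line 6 second and line 9 lowest on each of the 12 used probe sets, and the range over the ITD lines ran between 3.25 and 7.93 (log2) with a median of 5.71. In Sema7a, lines 1 and 6 were the 2 highest on 14 of 15 probe sets, line 4 was lowest on 10 and line 9 on 3, and the ranges over the lines were 1.43 to 6.90. The exception, probe set 5322463, stayed between 6.65 and 8.08 on all 17 arrays and is named after its values were seen. In Il2rb line 9 was lowest on 9 and line 4 on another 9 of 26 probe sets, and in Il2rg line 9 was lowest on 9 of 11. Of the 64 used probe sets the dimmest was 5123275 of Sema7a, which averaged 4.62. It passed the filter only through its 7.17 in line 1, so its place among the 14 with lines 1 and 6 on top adds no support. Of the 5 left out (4 of Il2rb and 1 of Il2ra) the brightest was 5375011 of Il2ra, which averaged 4.42.

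**Figure D2:**
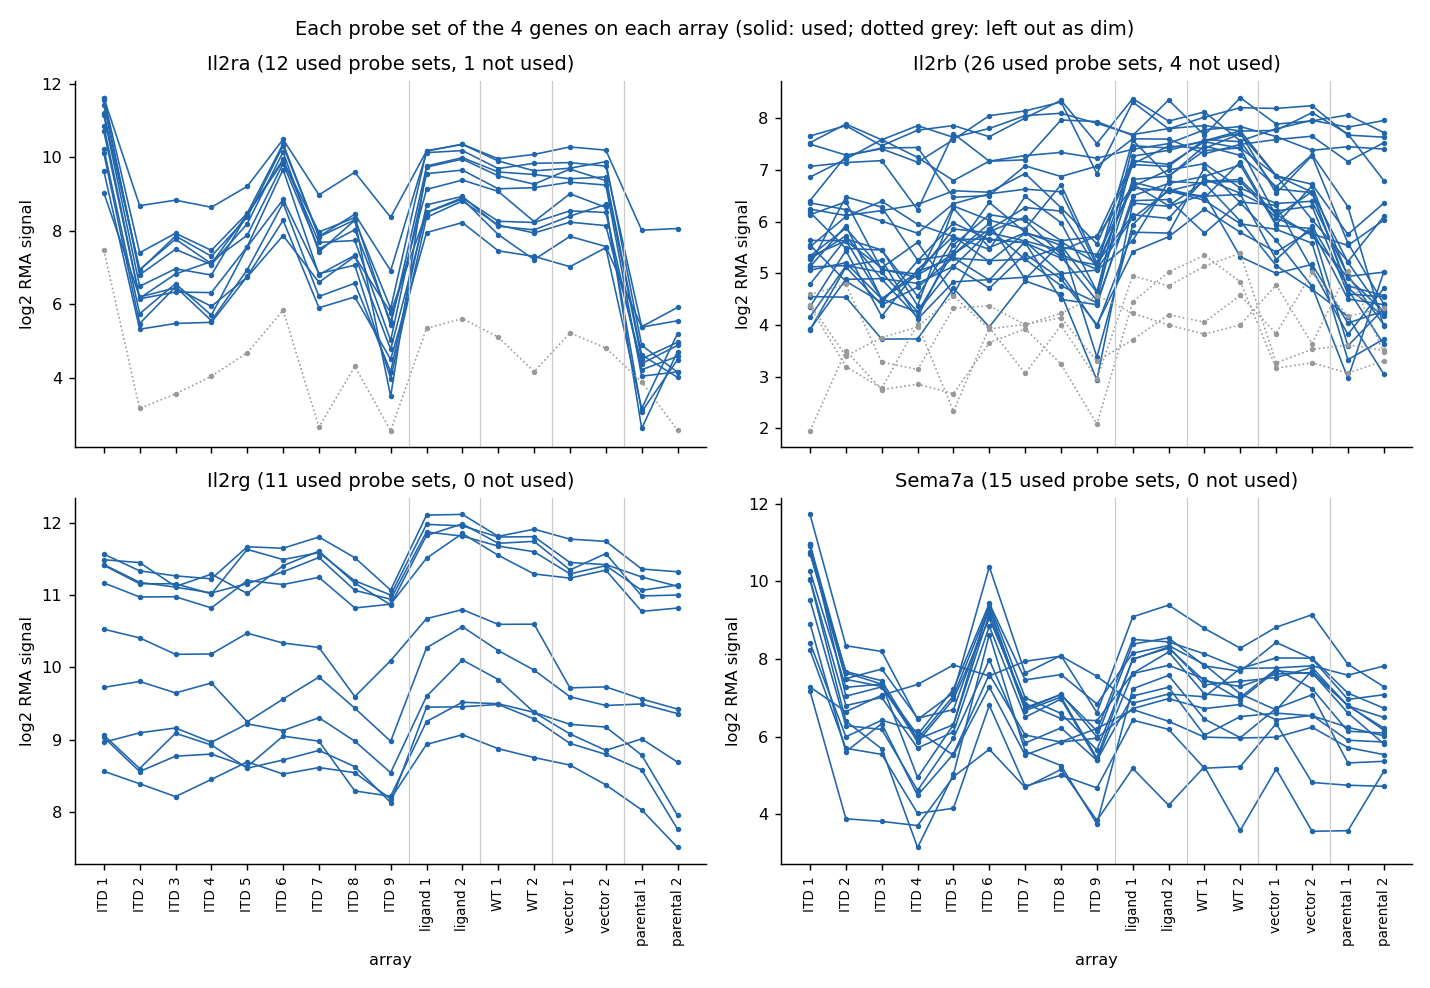
Log2 RMA signal (vertical axis) of every probe set of the 4 genes on each of the 17 arrays (horizontal axis, grey verticals between groups); each line joins the values of 1 probe set, and dotted grey ones were left out as dim. The 12 used Il2ra probe sets and 14 of the 15 Sema7a probe sets peak at ITD lines 1 and 6.

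The comparison of the ITD lines with the unweighted mean of the wild-type, vector and parental groups asks what the mutants share. Il2rb was 0.48 ± 0.12 lower on the log2 scale in the ITD lines (SE, limma, difference -0.48, adjusted p = 0.00896), at a mean of 5.81 in the ITD lines. It was the only one of the 4 genes to pass, where 19.4% of all genes passed and 8.15% passed as lower. Il2ra differed by 0.15 ± 0.60 (adjusted p = 0.897), Il2rg by -0.09 ± 0.08 (adjusted p = 0.482) and Sema7a by 0.14 ± 0.50 (adjusted p = 0.884). No gene of the 4 had all ITD arrays beyond all 6 of these control arrays, which 2.37% of genes had. The control mean joins groups at different levels. Without the wild-type group the Il2rb difference was -0.08 (adjusted p = 0.736) and without the vector group it was -0.39 (adjusted p = 0.0744). With each control pair averaged to 1 value and the averages joined into 1 group, the call was lost as well (limma, difference -0.48, adjusted p = 0.406). The spread in that fit also holds the differences between wild-type, vector and parental cells. Without the parental group Il2ra was at -1.21 and Sema7a at -0.12, neither called, and Il2rg at -0.30 passed (adjusted p = 0.0475). Without line 1 the differences were -0.24 for Il2ra and -0.22 for Sema7a, and without line 6 they were -0.09 and -0.06, again not called.

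Group by group, Il2rb and Il2rg stood lower in ITD lines than in cells with wild-type FLT3. Against wild-type FLT3 without ligand, Il2rb was lower by a log2 difference of -1.29 ± 0.18 (adjusted p = 0.000292) and Il2rg by -0.49 ± 0.12 (adjusted p = 0.0219), so 2 of the 4 genes passed as lower, where 7.71% of all genes passed and 4.44% did so as lower. Il2ra differed by -1.15 ± 0.89 (adjusted p = 0.504) and Sema7a by 0.00 ± 0.75 (adjusted p = 0.999), SEs that reflect the spread of the lines. The Il2rg call was lost without either wild-type array (adjusted p = 0.252 without replicate 1 and 0.145 without replicate 2). It was also lost with the median of its probe sets (difference -0.37, adjusted p = 0.221).

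Against wild-type FLT3 with ligand, in which the introduced receptor was also stimulated, Il2rb was lower by a log2 difference of -1.10 ± 0.18 (adjusted p = 0.00115) and Il2rg by -0.67 ± 0.12 (adjusted p = 0.00347), and 5.80% of all genes passed, with 4.08% lower. Il2ra differed by -1.69 ± 0.89 (adjusted p = 0.331) and Sema7a by -0.62 ± 0.75 (adjusted p = 0.734). Il2rg lost its call without ligand replicate 2 (-0.59, adjusted p = 0.128) and with the median of its probe sets (-0.51, adjusted p = 0.101).

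Against the vector, Il2rb was lower by a log2 difference of -0.67 ± 0.18 (adjusted p = 0.0170), and it alone passed of the 4, where 14.0% of all genes did and 5.21% were lower. The call was lost without vector replicate 1 (adjusted p = 0.153) or 2 (adjusted p = 0.146). Il2ra differed by -1.27 ± 0.89 (adjusted p = 0.376), Il2rg by -0.10 ± 0.12 (adjusted p = 0.637) and Sema7a by -0.24 ± 0.75 (adjusted p = 0.869).

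Against parental cells the direction was the opposite. Il2ra was 7.25-fold higher in the ITD lines, a log2 difference of 2.86 ± 0.89 (adjusted p = 0.0365), and it alone passed, where 17% of all genes did and 10.3% were higher. Without parental replicate 1 the difference was 2.59 (adjusted p = 0.240) and without replicate 2 it was 3.12 (adjusted p = 0.167). Il2rb differed by 0.52 ± 0.18 (adjusted p = 0.0546), Il2rg by 0.32 ± 0.12 (adjusted p = 0.0974) and Sema7a by 0.65 ± 0.75 (adjusted p = 0.644). Il2rb passed when line 4 (adjusted p = 0.0277) or line 9 (adjusted p = 0.0191) was left out, and Il2rg when line 9 was (adjusted p = 0.0185).

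Single probe sets, fitted over all 237584 used, carried these differences unevenly. For Il2rb, ITD minus wild-type FLT3 ran between -2.37 and 0.01 over the 26 probe sets. The probe sets named here were picked after their values were seen. Of its brightest, 5570887, 5379030 and 4708691 were at -0.05, -0.52 and 0.01. The brightest one called was 4636238, which averaged 6.60 over the arrays and was at -1.24. All brighter ones ran between -0.75 and 0.01 and none of them was called, so the Il2rb calls against wild-type FLT3 lay in dimmer probe sets. Against the control mean, the bright 4670022 (-0.66), 5568808 (-0.39) and 5546770 (-0.51) were among those called. For Il2rb, 10 of 26 probe sets were lower in ITD lines than in the control mean (7.61% of all probe sets were), 16 were lower than with wild-type FLT3 (3.05%), 11 were lower than with ligand (2.44%) and 3 were lower than with the vector (4.75%). Against parental cells 6 of its probe sets were higher (9.85%). This difference was positive on 20 of the 26 and negative on 6, none of the 6 called. The bright 5570887 (-0.10), 5379030 (-0.06), 4670022 (-0.61), 5568808 (-0.24) and 5546770 (-0.40) were negative, while the bright 4708691 was at 0.57. For Il2rg, 2 of 11 were lower than with wild-type FLT3 and 7 were lower than with ligand. For Il2ra, 8 of 12 were higher than in parental cells. No Sema7a probe set was called in any comparison. Between vector and parental cells 6 probe sets of Il2ra and 6 of Il2rb were higher with the vector, where 0.741% of all probe sets were. Without a trend of the variance with signal in the fit, some of these counts fell to 5 for Il2ra against parental, 6 for Il2rb and ligand, 0 for Il2rg and wild-type FLT3, and, between vector and parental, 0 for Il2ra and 3 for Il2rb.

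**Figure D3:**
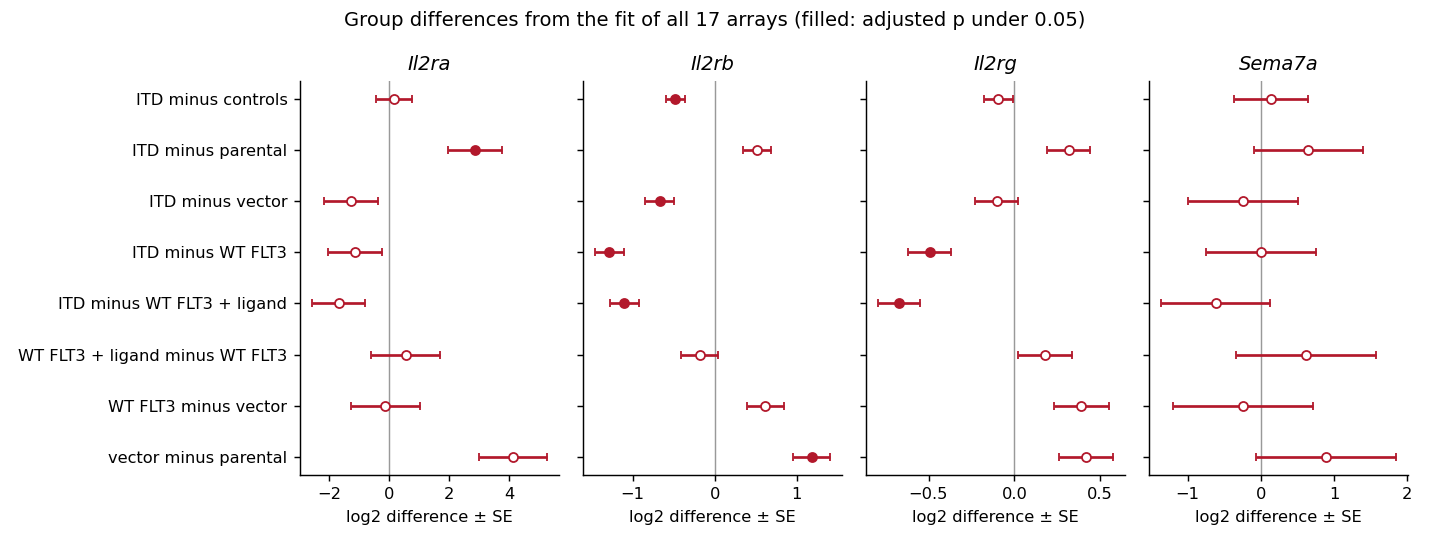
Log2 differences between groups (horizontal axis, scaled separately for each gene; points with SE bars) from the limma fit of all 17 arrays, with filled points at an adjusted p under 0.05. Il2rb is lower in ITD lines than with wild-type FLT3 (-1.29) and with the vector (-0.67), and the widest bars belong to Il2ra and Sema7a.

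The control groups also differed among themselves. In the fit of all 17 arrays, vector cells had more Il2rb than parental cells (log2 difference 1.19 ± 0.22, adjusted p = 0.00844), with 2.23% of all genes called and 1.27% higher. Il2ra was 17.5-fold higher on average, at 4.13 ± 1.14, but missed the threshold (adjusted p = 0.0720), and it passed without ITD line 1 (adjusted p = 0.0147) or line 9 (adjusted p = 0.0384). That fit pools the spread of the ITD lines into the SE of every gene, and this spread is wide for Il2ra and Sema7a. A fit of the 8 control arrays alone (4 residual degrees of freedom) was therefore added after the data were seen. In it vector minus parental was 4.13 ± 0.16 for Il2ra (adjusted p = 2.01e-06), 1.19 ± 0.11 for Il2rb (adjusted p = 0.000246), 0.42 ± 0.09 for Il2rg (adjusted p = 0.0190) and 0.89 ± 0.11 for Sema7a (adjusted p = 0.00126). All 4 genes were thus higher with the vector, where 13.7% of genes were called and 6.20% were higher. In the fit of all arrays the Il2rb call was lost without any single array of these 4 (adjusted p between 0.0543 and 0.0996).

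Wild-type FLT3 minus vector was 0.61 ± 0.11 for Il2rb (adjusted p = 0.00424) and 0.39 ± 0.09 for Il2rg (adjusted p = 0.0150) in the fit of control arrays, which called 23.0% of genes and 15.4% as higher. In that fit Il2ra differed by -0.13 ± 0.16 (adjusted p = 0.672) and Sema7a by -0.25 ± 0.11 (adjusted p = 0.175). In the fit of all arrays no member passed for this pair (Il2rb adjusted p = 0.110, Il2rg adjusted p = 0.153), with 8.22% of genes called.

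Ligand added to wild-type FLT3 cells came with more Sema7a in the fit of control arrays, a log2 difference of 0.62 ± 0.11 (adjusted p = 0.0160), with 5.68% of genes called and 4.21% higher. Il2ra differed by 0.54 ± 0.16 (adjusted p = 0.104), Il2rb by -0.18 ± 0.11 (adjusted p = 0.451) and Il2rg by 0.18 ± 0.09 (adjusted p = 0.357). The fit of all 17 arrays called 0 genes (0%) by limma for the ligand, with 1555 at an unadjusted p under 0.05, and its adjusted p for Sema7a was 0.928.

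By group means, Il2ra ran in the order ligand (9.34), vector (8.93), wild-type FLT3 (8.80), ITD (7.65) and parental (4.80); vector and wild-type FLT3 did not pass the test as neighbours, nor did wild-type FLT3 and ITD, while ITD and parental did. Il2rb ran wild-type FLT3 (7.09), ligand (6.91), vector (6.48), ITD (5.81) and parental (5.29), and among the neighbours that were tested only vector and ITD passed. Il2rg ran ligand (10.76), wild-type FLT3 (10.58), vector (10.19), ITD (10.09) and parental (9.77), with no tested neighbours past the threshold in the fit of all arrays. Sema7a ran ligand (7.49), vector (7.11), ITD (6.87), wild-type FLT3 (6.87) and parental (6.22), again with none. These means come from arrays normalised together.

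Among the ITD lines, Il2ra and Sema7a set lines 1 and 6 apart from the rest, so r for these genes is given over the other 7 lines, as a description with no test, since the genes and the lines set aside were chosen on these values. Between Il2ra and Sema7a Pearson's r was 0.443 and Spearman's rho 0.143, and r was 0.295 without the 2 lines farthest from the median. The other 6 relations of Il2ra or Sema7a, with Il2rb, Il2rg and Flt3, had r between -0.610 and 0.687. Between Il2rb and Il2rg over 9 lines r was 0.558 and rho 0.533 (exact permutation p = 0.118 and 0.148, adjusted over 10 relations p = 0.281 and 0.605), and without the 2 farthest lines r was 0.0942. Neither passed adjustment, nor did Flt3 with Il2rb (r = -0.306, rho = -0.200, exact permutation p = 0.450 and 0.613, adjusted p = 0.563 and 0.682; r = -0.191 without the 2 farthest lines) or with Il2rg (r = -0.208, rho = -0.317, exact permutation p = 0.572 and 0.410, adjusted p = 0.618 and 0.682; r = 0.110 without them).

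**Figure D4:**
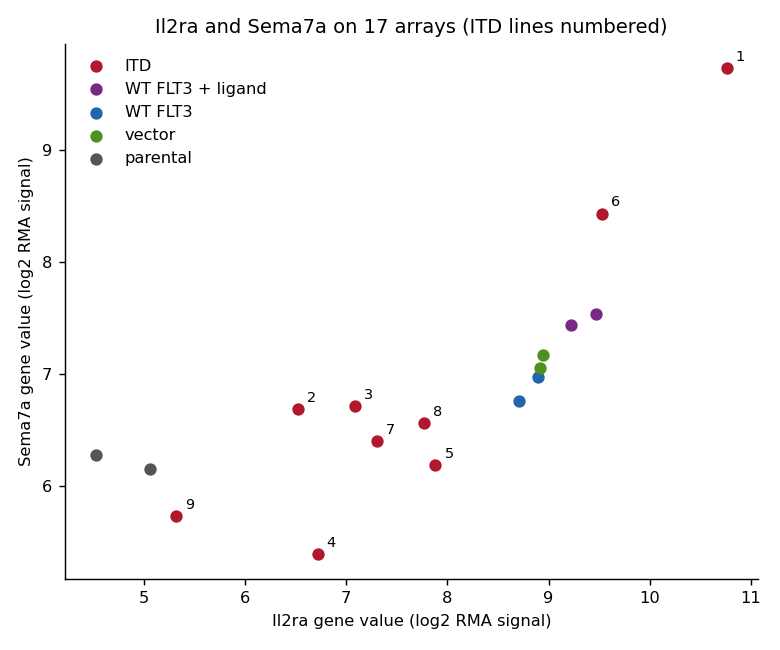
Gene values of Sema7a (vertical axis, log2 RMA signal) against Il2ra (horizontal axis, log2 RMA signal) on the 17 arrays, coloured by group, with ITD lines numbered. Lines 1 and 6 lie at the upper right, beyond the ligand, wild-type and vector arrays, and r was 0.443 over the other 7 lines.

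The genes whose patterns were most like these are given by Pearson's r across arrays that share their normalisation, with no test. Over all 17 arrays Il2ra was nearest to Slfn2 and Il4ra (r = 0.86 each), then Ass1 (0.83), Dnajc12 (0.83) and St3gal2 (0.82). Slfn2 was listed at 9.90 in line 1 and 9.27 in line 6, against 7.26 to 9.44 in the other lines and a mean of 6.44 in parental cells. Over the 9 ITD lines Il2ra was nearest to Il4ra (0.93), the IL-4 receptor chain that pairs with the gamma chain, followed by Bhlhe40 (0.93), a transcription repressor, Kynu (0.91), Sema7a (0.90) and Slc6a12 (0.90). Without lines 1 and 6 the r was 0.82 with Il4ra, 0.67 with Bhlhe40, 0.63 with Kynu, 0.44 with Sema7a and 0.57 with Slc6a12.

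Sema7a was nearest over 17 arrays to Krtap13-1 (0.88), Ripk1 (0.82), Akr1c19 (0.80), Slc44a2 (0.79) and Il2ra (0.79), and over the ITD lines to Bhlhe40 (0.95), Rasgrp3 (0.95), Slc6a12 (0.94), Krtap13-1 (0.93) and Plcl2 (0.92). Without lines 1 and 6 these r were 0.62 for Bhlhe40, 0.68 for Rasgrp3, 0.72 for Slc6a12, 0.77 for Krtap13-1 and 0.19 for Plcl2. Bhlhe40 was 10.26 in line 1 and 9.66 in line 6, above 8.79 to 9.29 in the other lines, but vector cells also had 9.96 on average. Slc6a12 was 8.57 and 7.92 in lines 1 and 6, below its vector mean of 9.23. Rasgrp3, an activator of Ras, was 6.73 and 6.09 in lines 1 and 6, and 4.87 to 5.54 in the others. Il2rb was nearest to Fam102a (0.94), Dgat2 (0.93), Pacsin1 (0.92), Ablim1 (0.92) and Gramd2 (0.92). Il2rg was nearest to Tlr4 (0.95), Gpr171 (0.94), Cass4 (0.93), Rbms1 (0.92) and Arid5b (0.92).

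The list of 6 other receptors of the gamma chain family included the related Crlf2, which does not pair with that chain. Of the 6, 0 were called in either direction for ITD minus controls by limma, 0 had an unadjusted p under 0.05, and 19.4% of all genes were called. With so few receptors a count of 0 is near that share, and 3 of the 4 genes treated above were not called either. The median log2 difference of the 6 receptors was -0.11 where that of all genes was -0.01. Il21r was the 1 receptor called as lower against the cultures with ligand (4.08% of all genes), with a log2 difference of -1.12 (adjusted p = 0.0108). Il4ra and Il15ra, the alpha chains for IL-4 and IL-15, were the 2 family receptors with lines 1 and 6 on top, an order that 2.40% of all genes had. Il4ra was 9.46 in line 1 and 9.11 in line 6, against 8.33 to 8.99 in the other lines. Il15ra was 8.82 and 8.55 in lines 1 and 6, against 7.62 to 8.36 in the other lines. Unlike for Il2ra, line 6 lay below both ligand arrays for Il4ra (9.36 and 9.27) and Il15ra (8.60 and 8.78).

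**Figure D5:**
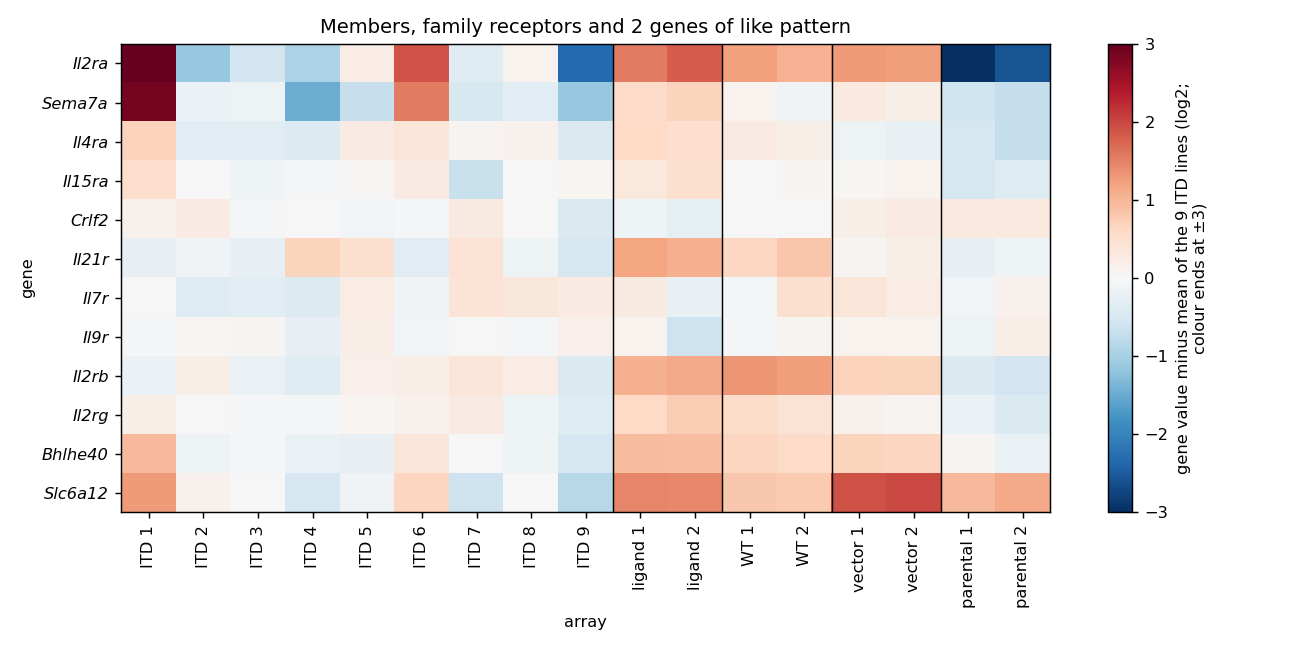
Gene value minus the mean of the 9 ITD lines (log2, colour, ends at ±3) for Il2ra, Sema7a, the 6 family receptors, Il2rb, Il2rg and the 2 genes near both Il2ra and Sema7a among ITD lines (rows) on the 17 arrays (columns, groups parted by lines). Lines 1 and 6 are the 2 highest ITD lines for Il2ra, Sema7a, Il4ra, Il15ra, Bhlhe40 and Slc6a12, but line 6 is faint for Il4ra, Il15ra and Bhlhe40. Slc6a12 is also red on control arrays (mean 9.23 with the vector and 8.35 in parental cells). The parental arrays are darkest blue for Il2ra.

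The list of 8 cytokines included the related Il13 and Tslp, which do not use the gamma chain. Of the 8, 1 was called in ITD minus controls, Il4, a cytokine of mast cells and basophils as well as T cells. It was lower by a log2 difference of -0.88 ± 0.14 (adjusted p = 0.000424) at 5.74 in ITD lines. Of 15 measured genes of IL-2 receptor signalling (of 16 listed), 3 were higher and 1 lower, where 11.2% of all genes were higher and 8.15% lower. The higher ones were Sos1, an activator of Ras, at 0.67 ± 0.14, the kinase Pik3cd at 0.38 ± 0.09 and the ribosomal S6 kinase Rps6kb1 at 0.26 ± 0.07, and the lower one was the kinase Syk at -0.60 ± 0.14. The list's median difference was 0.05. Against wild-type FLT3, 5 of the 15 were higher (3.27% of all genes) and 0 lower, among them Stat5a (0.58, adjusted p = 0.00361) and Stat5b (0.48, adjusted p = 0.0338), the transcription factors that the receptor activates. Wild-type FLT3 was the group with the lowest Stat5a mean, 9.58, against 10.16 in ITD lines, 9.83 with ligand, 10.48 with the vector and 10.26 in parental cells, and wild-type FLT3 minus vector was -0.90 ± 0.14 (adjusted p = 0.000970). Stat5a differed by 0.05 ± 0.07 in ITD minus controls (adjusted p = 0.667). Against the cultures with ligand 0 of the 15 genes were called by limma, with 5 at an unadjusted p under 0.05, where 5.80% of all genes were called.

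None of 7 inhibitors of the pathway was called in ITD minus controls by limma (19.4% of all genes), with a median difference of 0.11. At an unadjusted p under 0.05 there was 1 of the 7, and 6391 of all 20227 genes. Against parental cells 3 of the 7 were higher (10.3% of all genes) and 0 lower. Against the cultures with ligand 0 were higher and 1 was lower (4.08%). None was called against the vector (14.0%) or wild-type FLT3 (7.71%). Of 14 STAT5 targets 5 were higher and 1 lower in ITD minus controls, with a median of 0.12, where 11.2% of all genes were higher and 8.15% lower. Against parental cells 7 of the 14 were higher (10.3% of all genes) and 1 was lower, and against the vector 4 were higher and 1 lower. Against wild-type FLT3 limma called 0 of the 14 (7.71% of all genes; 2 at an unadjusted p under 0.05, median -0.10), and against the cultures with ligand it called 0 (5.80% of all genes; 1 at an unadjusted p under 0.05, median -0.16). The following values are ITD minus controls. Id1 was higher by 0.71 ± 0.10, Osm by 0.59 ± 0.13, the survival gene Bcl2l1 by 0.57 ± 0.09, Spry2 by 0.35 ± 0.08 and the G1 cyclin Ccnd2 by 0.34 ± 0.07, while the repressor Bcl6, which STAT5 is known to lower, was at -1.26 ± 0.19. Pim1 alone of these targets had lines 1 and 6 on top, as Il2ra had.

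Around Sema7a, 1 of 7 measured receptors and effectors was higher and 2 were lower in ITD minus controls (8 listed, median 0.02). Of all genes 11.2% were higher and 8.15% lower, shares that also apply to the next 2 lists. Itgb1, the integrin beta-1 chain, was higher by 0.35 ± 0.06 (adjusted p = 0.000431) and also had lines 6 and 1 on top, at 11.15 and 11.07. Plxnc1, the plexin that binds Sema7a, was lower at -0.25 ± 0.07 (adjusted p = 0.0207), and the kinase Mapk3 was lower at -0.31 ± 0.08. Among 19 other semaphorins 0 were higher and 1 was lower, Sema4a at -0.71 ± 0.13 (median -0.07), and none had lines 1 and 6 on top. Of 10 measured plexins and neuropilins 2 were lower, Plxnd1 at -0.44 ± 0.06 and Plxnc1 (median -0.14).

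The introduced gene and the identity of the cells were checked. Flt3 read 7.08 to 7.32 in ITD lines, 6.88 and 6.89 with ligand, 6.73 and 6.79 with wild-type FLT3, 5.15 and 5.24 with the vector, and 5.12 and 5.37 in parental cells, so every array of cells given human FLT3 lay above every vector and parental array. The probes are those of a mouse array, so signal from human FLT3 and from mouse Flt3 cannot be told apart. The Flt3 value is therefore not a measure of the level of the introduced gene. For comparison, lines 1 and 6 were at 7.15 and 7.11. Lymphocytes also carry the IL-2 receptor. Of 11 T cell markers 1 exceeded 7 on any array, and their mean level per array was 5.72 to 6.12 in ITD lines, 5.78 to 6.04 with ligand, 6.01 to 6.04 with wild-type FLT3, 6.06 to 6.11 with the vector and 6.01 to 6.10 in parental cells. In ITD minus controls 0 of 11 T cell markers were higher and 1 lower, and 0 of 5 B cell markers were called (limma, 0 at an unadjusted p under 0.05). Of 5 NK cell markers 1 was higher, Klrk1 at 0.62 ± 0.16. Of all genes 19.4% were called, 11.2% as higher and 8.15% as lower, and 6391 of 20227 had an unadjusted p under 0.05. With so few markers these lymphocyte counts are near those shares. On some array 1 of the 5 B cell markers and 2 of the 5 NK cell markers exceeded 7. The B cell markers averaged 5.78 to 6.23 per array in ITD lines, 5.85 to 6.11 with ligand, 5.92 to 5.996 with wild-type FLT3, 5.92 to 6.23 with the vector and 6.10 to 6.22 in parental cells. The NK cell markers averaged 5.45 to 6.08 in ITD lines, 5.23 to 5.60 with ligand, 5.57 to 5.77 with wild-type FLT3, 5.86 to 6.08 with the vector and 5.99 to 6.05 in parental cells, and 1 of them, Klrb1c, had lines 6 and 1 on top. Of 5 dendritic cell markers 2 were higher, 1 of them Flt3, the gene introduced in its human form.

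The mean level of 9 markers of mast cells and basophils was 7.24 to 8.19 in ITD lines, 6.78 to 6.81 with ligand, 6.84 to 6.92 with wild-type FLT3, 7.93 to 7.98 with the vector and 9.13 to 9.25 in parental cells. Lines 1 and 6 ranked 6 and 4 among the ITD lines for this level. In ITD minus controls 1 of these 9 markers (10 listed) was higher, Prss34, and 2 were lower, with a median log2 difference of -0.32. Of all genes 11.2% were higher and 8.15% lower, with a median of -0.01. The mean level of 9 myeloid progenitor markers was 9.74 to 10.14 in ITD lines and 10.03 to 10.04 with ligand. It was 9.91 to 9.94 with wild-type FLT3, about 10.48 with the vector and 10.60 to 10.68 in parental cells. In ITD minus controls 5 of the 9 were lower (8.15% of all genes) and 0 were higher, with a median of -0.36. Parental cells were thus highest in both marker lists and lowest in all 4 genes. The part of these cell states in the Il2ra, Il2rb, Il2rg and Sema7a differences was not tested.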

How the data were processed

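Total RNA of 17 cultures was hybridised to Affymetrix Mouse Exon 1.0 ST arrays. The deposited table holds log2 signals for each probe set; the submitters' processing notes name RMA and Affymetrix Expression Console 1.1 as the authors' tools. RMA normalises arrays to each other, so a shift of all genes would be removed. Genome build and probe set filter are not given in the sources used here. Array medians were 4.63 to 4.69, and precision is limited by how many arrays there are.

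Of 1256831 probe sets, 325444 had a gene symbol in the platform annotation and 6684 of these had several and were left out. Of 22296 symbols, 18006 were current in RefSeq, 4227 were updated and 63 were kept. Probe sets with a mean over 17 arrays above 4.599 (the median of that mean) were averaged per gene, which left 237584 probe sets.

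Every gene was fitted with 1 mean per group (limma 3.58.1, R 4.3.3; lmFit, eBayes with trend), with 12 residual and 4.49 prior degrees of freedom, two-sided, with Benjamini-Hochberg adjustment over all genes and calls at 0.05. Probe sets were fitted likewise. Code was tested on simulated data. Spread among ITD lines was tested one-sided (variance over 9 ITD arrays over that within 4 control pairs). Exact permutation tests used scipy 1.17.1.

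The 4 genes, the lists and the tests were chosen with earlier results of these data known. Genes of the pathway lists were named if called in ITD minus controls, up to 6 a list. Not all called cell type markers were named. Genes of like pattern were the 5 with the highest r per gene, with an SD of at least 0.3 and no predicted models. Il15ra, Il21r, Pim1, Stat5a and Stat5b were named after their values were seen. Replicate numbers of the control groups were checked for pairing: deviations of replicate 1 correlated between groups at -0.118 to 0.0917 (median -0.0111, 6 pairs of groups), so the numbers were not taken to pair samples. Alternatives varied the filter, the summary of probe sets, the normalisation, the variance model and the arrays used.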

Additional observations from a re-analysis of the deposited data

Results flagged for a closer look

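The Il2ra probe set left out as dim, 5375011, read 7.48 in ITD line 1, against 5.61 on the highest control array. It lies outside the gene values above, and its highest value is in the line where the 12 used Il2ra probe sets were highest too. A gap test for 1 line far from the other 8 (critical value 0.493) marked 0 of 56 named genes. It cannot mark 2 lines that stand apart together, as lines 1 and 6 do for Il2ra and Sema7a, so it says nothing on these 2 genes.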

How the results depend on the processing

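Of 1218 recomputed values, 1080 kept their direction and side of the threshold. Log2 differences are given with adjusted p in brackets, and the cause of a change was not tested unless fewer arrays or probe sets entered. Without the filter on dim probe sets Il2ra ITD minus parental was 2.72 (0.0559) and 317 genes varied among ITD lines, and a stricter filter gave Sema7a ITD minus wild-type FLT3 -0.061, Il2rb vector minus parental 0.53 (0.119) and 1213 varying genes. With the median of probe sets, which follows 1 middle probe set, Il2rg was 0.29 for ITD minus controls, 0.51 against vector, 0.74 against parental (0.00500), -0.37 against wild-type FLT3 (0.221), -0.51 against ligand (0.101) and 0.87 for wild-type FLT3 minus vector (0.0193), Il2rb ITD minus parental was 0.76 (0.0177), and 50 genes varied. Quantile normalisation repeated gave Sema7a ITD minus wild-type FLT3 -0.026, an F ratio of 88.1 for Il2rb (0.0310) and 861 varying genes, and shrunken pair variances gave 801. Array weights called 6263 genes for ITD minus controls, 6381 against vector, 4228 against wild-type FLT3, 3467 against ligand, 448 for ligand minus wild-type FLT3, 4440 for wild-type FLT3 minus vector and 2131 for vector minus parental. With these weights Il2rb (0.54, 0.00781) and Il2rg (0.35, 0.0136) passed against parental, Il2rb (0.61) and Il2rg (0.39) for wild-type FLT3 minus vector and Il2ra (4.13) and Il2rg (0.42) for vector minus parental, and Sema7a ITD minus vector was 0.33 (0.727). Fits of the compared groups alone gave Il2ra ITD minus parental 2.86 (0.0780) and Il2rg ITD minus wild-type FLT3 -0.49 (0.0550), and they called 843 genes against wild-type FLT3, 678 against ligand, 949 for ligand minus wild-type FLT3, 4883 for wild-type FLT3 minus vector and 2013 for vector minus parental. In them ligand minus wild-type FLT3 passed for Il2ra (0.54, 0.0305) and Sema7a (0.62, 0.0291), wild-type FLT3 minus vector for Il2rb (0.61) and Il2rg (0.39), and vector minus parental for Il2ra (4.13), Il2rg (0.42, 0.0442) and Sema7a (0.89). The fit of the 8 control arrays, chosen after seeing the data, called 1148, 4652 and 2773 genes for these 3 pairs, with the differences given above (Sema7a 0.62 and 0.89, Il2rb 0.61, Il2rg 0.39 and 0.42, Il2ra 4.13). The same fit with the replicate number as a block called 864, 4382 and 2418 genes, with Sema7a 0.62 (0.0254) and 0.89 (0.00245), Il2rb 0.61 (0.00861), Il2rg 0.39 (0.0203) and 0.42 (0.0264) and Il2ra 4.13 (6.9e-06); since the numbers were not found to pair samples, it is only a comparison of settings. For ITD minus controls, leaving out the parental group gave Il2ra -1.21, Sema7a -0.12 and Il2rg -0.30 (0.0475), leaving out the vector group gave Il2rb -0.39 (0.0744) and 2491 genes, and leaving out the wild-type group gave Il2rb -0.078 (0.736) and Il2rg 0.11. With each control pair averaged and the averages joined into 1 group, the Il2rb difference was -0.48 (0.406) and 466 genes passed. Single arrays left out in turn gave ITD minus controls of -0.24 to 0.44 for Il2ra and -0.22 to 0.32 for Sema7a, ITD minus wild-type FLT3 of -0.35 to 0.19 for Sema7a and -0.56 to -0.43 for Il2rg, and ITD minus ligand of -0.75 to -0.59 for Il2rg. ITD minus parental ranged over 2.47 to 3.15 for Il2ra, 0.44 to 0.59 for Il2rb and 0.19 to 0.44 for Il2rg, ITD minus vector over -0.72 to -0.62 for Il2rb, and vector minus parental over 3.87 to 4.40 for Il2ra and 1.12 to 1.26 for Il2rb. Genes called ranged over 1400 to 3897 against parental, 706 to 3720 against vector, 281 to 2463 against wild-type FLT3, 243 to 1500 against ligand, 0 to 4 for ligand minus wild-type FLT3, 456 to 2116 for wild-type FLT3 minus vector, 105 to 764 for vector minus parental and 0 to 700 for variation. Correlations over ITD lines changed sign for Il2ra and Il2rg with the median of probe sets (-0.0995) or single lines left out (-0.0143 to 0.837), for Flt3 and Il2rb likewise (-0.493 to 0.126), for Flt3 and Il2ra with the median (-0.7975) or the stricter filter (-0.3205), and for Flt3 and Il2rg with the median (0.260). Without a trend in the variance, called probe sets fell to 5 for Il2ra against parental, 0 for Il2rg against wild-type FLT3, 6 for Il2rb against ligand, 0 for Il2rg between wild-type FLT3 and vector, and 0 for Il2ra and 3 for Il2rb between vector and parental.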
